A study of Danio rerio with 6 samples.

Results

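The 4 genes described here serve the synthesis and vesicular loading of GABA, and the synthesis of dopamine, in amacrine cells of the retina. They are *gad1b* (ENSDARG00000027419), *gad2* (ENSDARG00000015537), *slc32a1* (ENSDARG00000059775) and *th* (ENSDARG00000030621). They were chosen by these identifiers, as markers of inner neurons in a retina that loses its cone input. They are 4 of 25190 genes in the count table and 4 of 32264 in the FPKM table. All 4 passed the filter on low counts, which left 17242 genes.

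The study sequenced RNA from whole retinas of zebrafish larvae at 5 days post-fertilization (dpf), with 3 libraries per genotype. The *pde6c* larvae (libraries PR1, PR2 and PR3) were homozygous for the w59 allele, a point mutation in the cone phosphodiesterase gene, and came from crosses of heterozygous carriers. The WT larvae (libraries WR1, WR2 and WR3) had other parents, non-carrier fish of the same families, so genotype and parentage cannot be told apart. Each library held 3 retinas from 3 larvae, dark-adapted before dissection in both genotypes, and its RNA was amplified before sequencing. The spread between libraries is therefore that between pools of larvae.

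Amacrine cells are the inhibitory interneurons of the inner retina, and they receive the cone signal through bipolar cells. *gad1b* and *gad2* encode glutamate decarboxylases, which make GABA from glutamate. *slc32a1* encodes the vesicular transporter that loads GABA and glycine into synaptic vesicles, so that it marks GABA and glycine neurons alike. *th* encodes tyrosine hydroxylase, the rate-limiting enzyme of dopamine synthesis, and in the retina it marks the sparse dopaminergic amacrine and interplexiform cells that take part in adaptation to light. In fish some horizontal cells also use GABA, so the glutamate decarboxylases are not restricted to amacrine cells. In whole retinas fewer cells of a type and less RNA per cell cannot be told apart.

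The libraries held 20322524 to 21936191 counts in *pde6c* and 18757605 to 22510222 in WT. edgeR's quasi-likelihood test at an adjusted p under 0.1 called 636 of 17242 genes (3.69%), of which 241 were higher in *pde6c* (1.40%) and 395 lower (2.29%). The median log2 fold change over all genes tested was 0.00. *pde6c* itself was listed at 0 counts in all 6 libraries; its span lies within that of another gene, and fragments shared by several genes were left out of the counts. In FPKM it was 60.1, 140.2 and 84.8 in *pde6c* retinas, against 445, 655 and 520.0 in WT retinas, and every library labelled *pde6c* was lower than every WT library. The cone transducin gene *gnat2* was at 1025, 1358 and 902 FPKM in *pde6c* libraries, against 4350.3, 4275 and 3870.3 FPKM in WT libraries, the same direction as its counts, so that both tables gave the genotypes the same way. Of the cone markers tested, 8 of 14 fell and 2 rose, against 2.29% and 1.40% of all genes tested. Those that rose were *opn1lw1* (log2 fold change 1.66, edgeR adjusted p = 0.0248) and *opn1mw3*, a gene of low counts. Among the cone markers with the lowest adjusted p, the green opsin *opn1mw1* fell by 1.83 on the log2 scale (edgeR, adjusted p = 1.32e-06). *gnat2* fell by 1.95 (adjusted p = 3.75e-06) and the channel subunit *cnga3a* by 1.94 (adjusted p = 1.67e-05).

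None of the 4 transmitter genes was called between *pde6c* and WT. The count was 0 of 4 with edgeR, against 3.69% of all genes tested, and it was 0 with DESeq2 and with limma as well. With edgeR 0 of the 4 had an unadjusted p under 0.05. The share of all genes under that unadjusted p is not given, so counts of this kind have no background, here or below. The 4 log2 fold changes lay between -0.18 and 0.12, with 2 positive and 2 negative and a median of -0.04. In CPM, the counts scaled to equal library size with edgeR's TMM factors, the genotypes overlapped for each of the 4. They did not overlap for 16.9% of all genes tested. A list of 4 genes can give 0 at this share and at 3.69%. Their summed level was 616 to 688 CPM in *pde6c* and 567 to 694 CPM in WT. Most of the sum was *gad1b* and *gad2* (means over the libraries 269 and 298 CPM), whereas *slc32a1* averaged 53.5 CPM and *th* 17.1 CPM. The 95% intervals of the fold changes did not exclude differences, down to 0.572 and up to 1.37 for *th*, the widest. They are given for each gene.

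**Figure D1:**
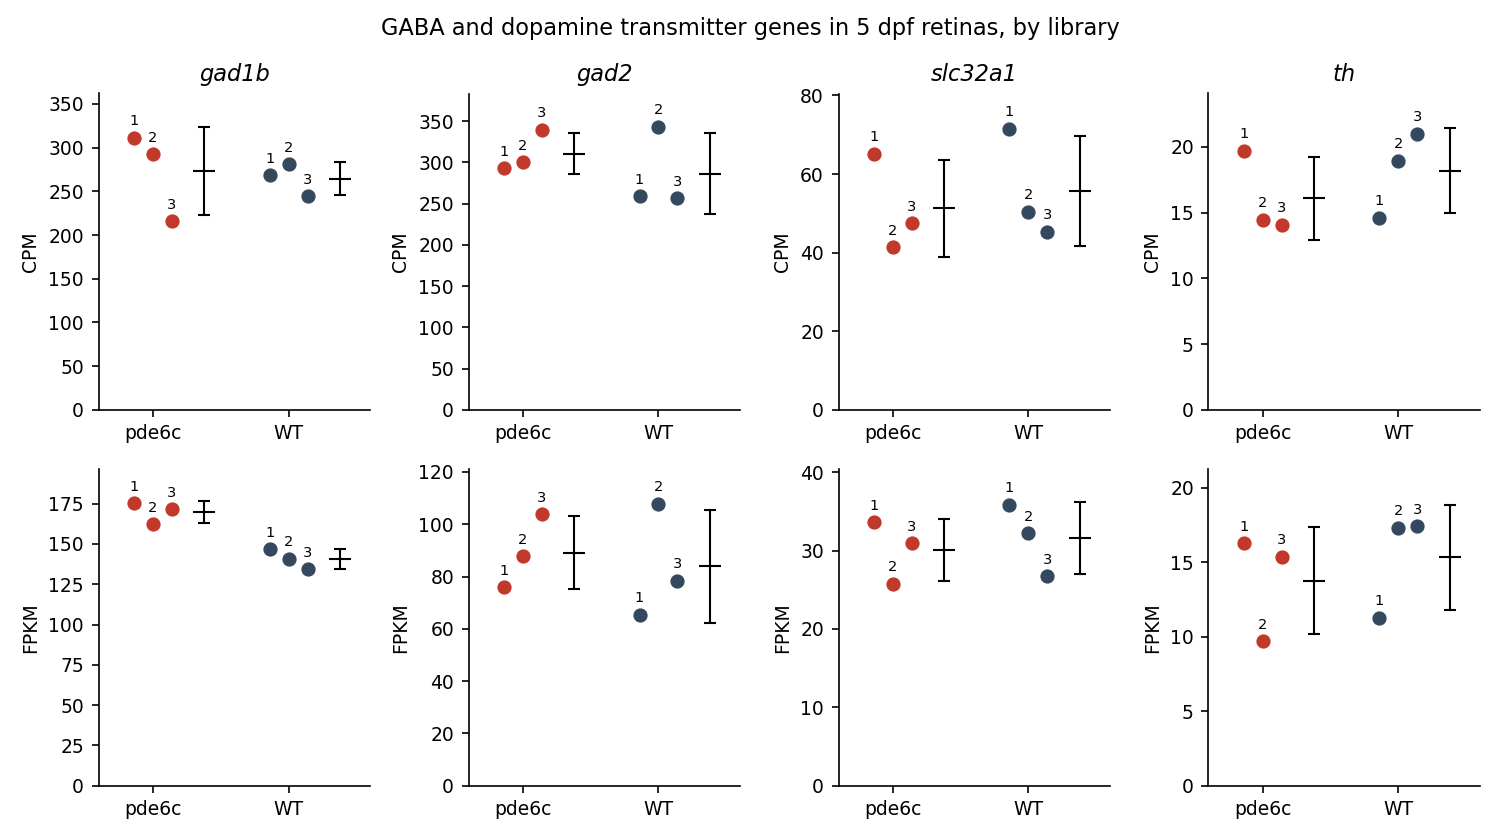
Level of each of the 4 transmitter genes in every library, in CPM (upper row) and FPKM (lower row), with *pde6c* on the left and WT on the right of each panel. Points are libraries with their replicate number, and bars give the mean ± SD (n = 3 each). The genotypes overlapped in every panel except *gad1b* in FPKM, where the *pde6c* libraries lay between 162 and 175 and the WT libraries between 134 and 147.

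*gad1b* lies on chromosome 6 at 3666931 to 3701293 of GRCz10, on the plus strand. It had 311, 292 and 216 CPM in *pde6c* libraries PR1, PR2 and PR3, against 268, 281 and 244 CPM in WT libraries WR1, WR2 and WR3. The mean was 273 ± 50.6 CPM in *pde6c* and 265 ± 18.8 CPM in WT (SD, n = 3 each). The *pde6c* libraries enclosed the WT range on both sides: PR1 and PR2 were the highest of the 6 and PR3 the lowest. The fold change was 1.03 with a 95% interval of 0.815 to 1.31 (log2 0.05, SE 0.16, edgeR adjusted p = 0.956), and its direction turned without PR1 (log2 -0.047) or PR2 (-0.0075).

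In FPKM the same gene gave another picture. *gad1b* had 175, 162 and 172 FPKM in *pde6c* libraries, against 147, 141 and 134 FPKM in WT libraries. The genotypes did not overlap on this scale, and PR3, lowest in CPM, was second highest in FPKM. The mean was 169.7 ± 6.69 FPKM in *pde6c* and 141 ± 6.27 FPKM in WT. The exact permutation test gave p = 0.1, the smallest that 3 against 3 libraries allow, and limma on log2(FPKM + 1) gave a difference of 0.27 with an adjusted p of 0.649. FPKM of the genotypes did not overlap for 1 of the 4 transmitter genes, and it was higher in *pde6c*. Of 14879 genes that reached 1 FPKM in 3 or more libraries, 15.8% did not overlap, 7.39% with *pde6c* higher and 8.39% with *pde6c* lower. The counts took in the whole gene span, introns included, and FPKM was estimated on transcripts; the part of this in the difference between the tables was not tested.

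*gad2* lies on chromosome 24 at 6103818 to 6129604, on the minus strand. It had 293, 299.9 and 339 CPM in *pde6c* libraries, against 259, 343 and 257 CPM in WT libraries. WR2 was the highest of all 6 libraries and the other two WT libraries were the lowest, so the genotypes overlapped through WR2 alone. The mean was 311 ± 25.1 CPM in *pde6c* and 286 ± 49.3 CPM in WT, a fold change of 1.08 with a 95% interval of 0.863 to 1.36 (log2 0.12, SE 0.16, edgeR adjusted p = 0.854). In FPKM *gad2* had 75.9, 87.7 and 104 in *pde6c* libraries, against 65.5, 108 and 78.4 in WT libraries. WR2 was again the highest, and the genotypes overlapped.

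*slc32a1* lies on chromosome 6 at 60147713 to 60152730, on the minus strand. The vesicular transporter gene had 65.1, 41.4 and 47.4 CPM in *pde6c* libraries, against 71.5, 50.4 and 45.3 CPM in WT libraries. WR1 and PR1 stood above the other libraries of their genotype, and the rest lay close together in both genotypes. The mean was 51.3 ± 12.3 CPM in *pde6c* and 55.7 ± 13.9 CPM in WT, a fold change of 0.921 with a 95% interval of 0.658 to 1.29 (log2 -0.12, SE 0.23, edgeR adjusted p = 0.912), and its direction turned without PR2 (log2 0.01) or WR1 (0.11). In FPKM it had 33.6, 25.8 and 30.9 in *pde6c* libraries, against 35.8, 32.2 and 26.7 in WT libraries. The libraries stood in the same order on both scales.

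*th* lies on chromosome 25 at 23957793 to 23976952, on the minus strand, and was the lowest of the 4 genes. The tyrosine hydroxylase gene had 459, 309 and 290 counts in *pde6c* libraries, against 331, 337 and 436 counts in WT libraries. On the CPM scale this was 19.7, 14.5 and 14.1 in *pde6c*, against 14.6, 19.0 and 21.0 in WT. PR1 lay with the 2 higher WT libraries, and WR1 with the 2 lower *pde6c* libraries. The mean was 16.1 ± 3.14 CPM in *pde6c* and 18.2 ± 3.25 CPM in WT, a fold change of 0.885 with a 95% interval of 0.572 to 1.37 (log2 -0.18, SE 0.30, edgeR adjusted p = 0.892). In FPKM *th* had 16.3, 9.69 and 15.4 in *pde6c* libraries, against 11.3, 17.3 and 17.4 in WT libraries. The interval of *th* was the widest of the 4.

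Levels were compared between the genes in FPKM, which is per transcript length. The order was *gad1b*, *gad2*, *slc32a1*, *th* in all 6 libraries, with means over the libraries of 155, 86.5, 30.8 and 14.6 FPKM. The ranges of neighbours in this order did not overlap: *gad1b* was at least 134 and *gad2* at most 108, *gad2* at least 65.5 and *slc32a1* at most 35.8, and *slc32a1* at least 25.8 and *th* at most 17.4 FPKM. Among all genes above 0 FPKM, *gad1b* stood at percentile 97.1, *gad2* at 95.3, *slc32a1* at 86.7 and *th* at 74.0. The paralogues of these genes were near the lower limit. *gad1a*, the other copy of *gad1*, averaged 0.183 FPKM over the libraries, *gad3* 0.00899 FPKM and *th2* 0.0949 FPKM, and the last was above 0 only in WR3.

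Ratios within a library do not depend on how libraries are scaled. The ratio of *gad1b* to *gad2* counts was 1.06, 0.975 and 0.636 in *pde6c* libraries, against 1.04, 0.819 and 0.951 in WT libraries. PR3 held the lowest ratio, and the remaining 5 libraries lay between 0.819 and 1.06. The mean log2 ratio differed by -0.10 between *pde6c* and WT (two-sided exact permutation test, p = 0.9). The ratio of *th* to *slc32a1* counts was 0.303, 0.350 and 0.297 in *pde6c* libraries, against 0.204, 0.377 and 0.464 in WT libraries. The WT libraries enclosed the *pde6c* range on both sides, and the mean log2 ratio differed by -0.06 (exact permutation test, p = 0.9). Neither direction was stable: the first difference was 0.13 without PR3, and the second was 0.04 without WR2 and 0.19 without WR3. For *gad1b* to *slc32a1* in FPKM the ratio was 5.22, 6.30 and 5.55 in *pde6c* libraries, against 4.09, 4.38 and 5.03 in WT libraries. This mean log2 ratio differed by 0.34 (exact permutation test, p = 0.1, the smallest possible), and in counts by 0.15 (p = 0.6). The *gad2* to *slc32a1* ratio differed by 0.25 in counts and 0.17 in FPKM (exact permutation test, p = 0.5 each). The share of other gene pairs whose ratios separate the genotypes is not given.

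The genes whose log2 CPM followed each transmitter gene most closely were sought among 12904 named genes, over the 6 libraries. For *gad1b* they were *chchd2* and *MCTS2* (Pearson r = 0.990 each) and *srms* (0.983), and for *gad2* they were *rnpc3* (0.993), *lypla1* (0.984) and *qkib* (0.984). For *slc32a1* they were *ndel1a* (0.998), *stmn2b* (0.993) and *SMC1A* (0.988), and for *th* *gde1* (0.981), *lrriq1* (0.978) and *SLC25A29* (0.978). With 6 libraries and this many genes, values this high are a description of these libraries only.

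No gene of GABA turnover passed the test either. Of the 7 tested genes of GABA synthesis, breakdown and uptake, 0 were called by edgeR, against 3.69% of all genes tested. A list this short can give 0 calls at that share. An unadjusted p under 0.05 was found with edgeR for 0 of the 7 genes. Their median log2 fold change was 0.21, with 4 positive and 3 negative. *slc6a1b*, a GABA reuptake transporter, averaged 143 ± 13.8 FPKM in *pde6c* and 156 ± 42.7 FPKM in WT (log2 fold change in CPM -0.14, edgeR adjusted p = 0.846). Its paralogue *slc6a1a* averaged 92.3 ± 19.9 FPKM in *pde6c* and 80.0 ± 22.2 FPKM in WT (0.44, adjusted p = 0.741). *abat*, the transaminase that breaks GABA down, averaged 71.8 ± 11.7 FPKM in *pde6c* and 55.46 ± 24.8 FPKM in WT (0.21, adjusted p = 0.814). All 3 overlapped between genotypes. The spans of *slc6a1a* and of the glycine transporter gene *slc6a9* each overlap 1 other gene. So do those of *gnat2*, *opn1mw1* and the GABA-A receptor subunit gene *gabra6a*. The counts of all these overlapping genes are therefore partial and their fold changes less certain. No span of the 4 transmitter genes overlaps another gene. The 9 genes of the GABA-B receptor and the inhibitory postsynaptic scaffold gave 0 calls by edgeR, against 3.69% of all genes tested. They gave 0 at an unadjusted p under 0.05 with edgeR, and a median of 0.08. The most abundant of these were the collybistin genes *arhgef9a* (mean over the 6 libraries 44.9 FPKM, log2 fold change 0.25) and *arhgef9b* (35.7 FPKM, 0.36) and the gephyrin gene *gphna* (37.6 FPKM, 0.08).

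**Figure D2:**
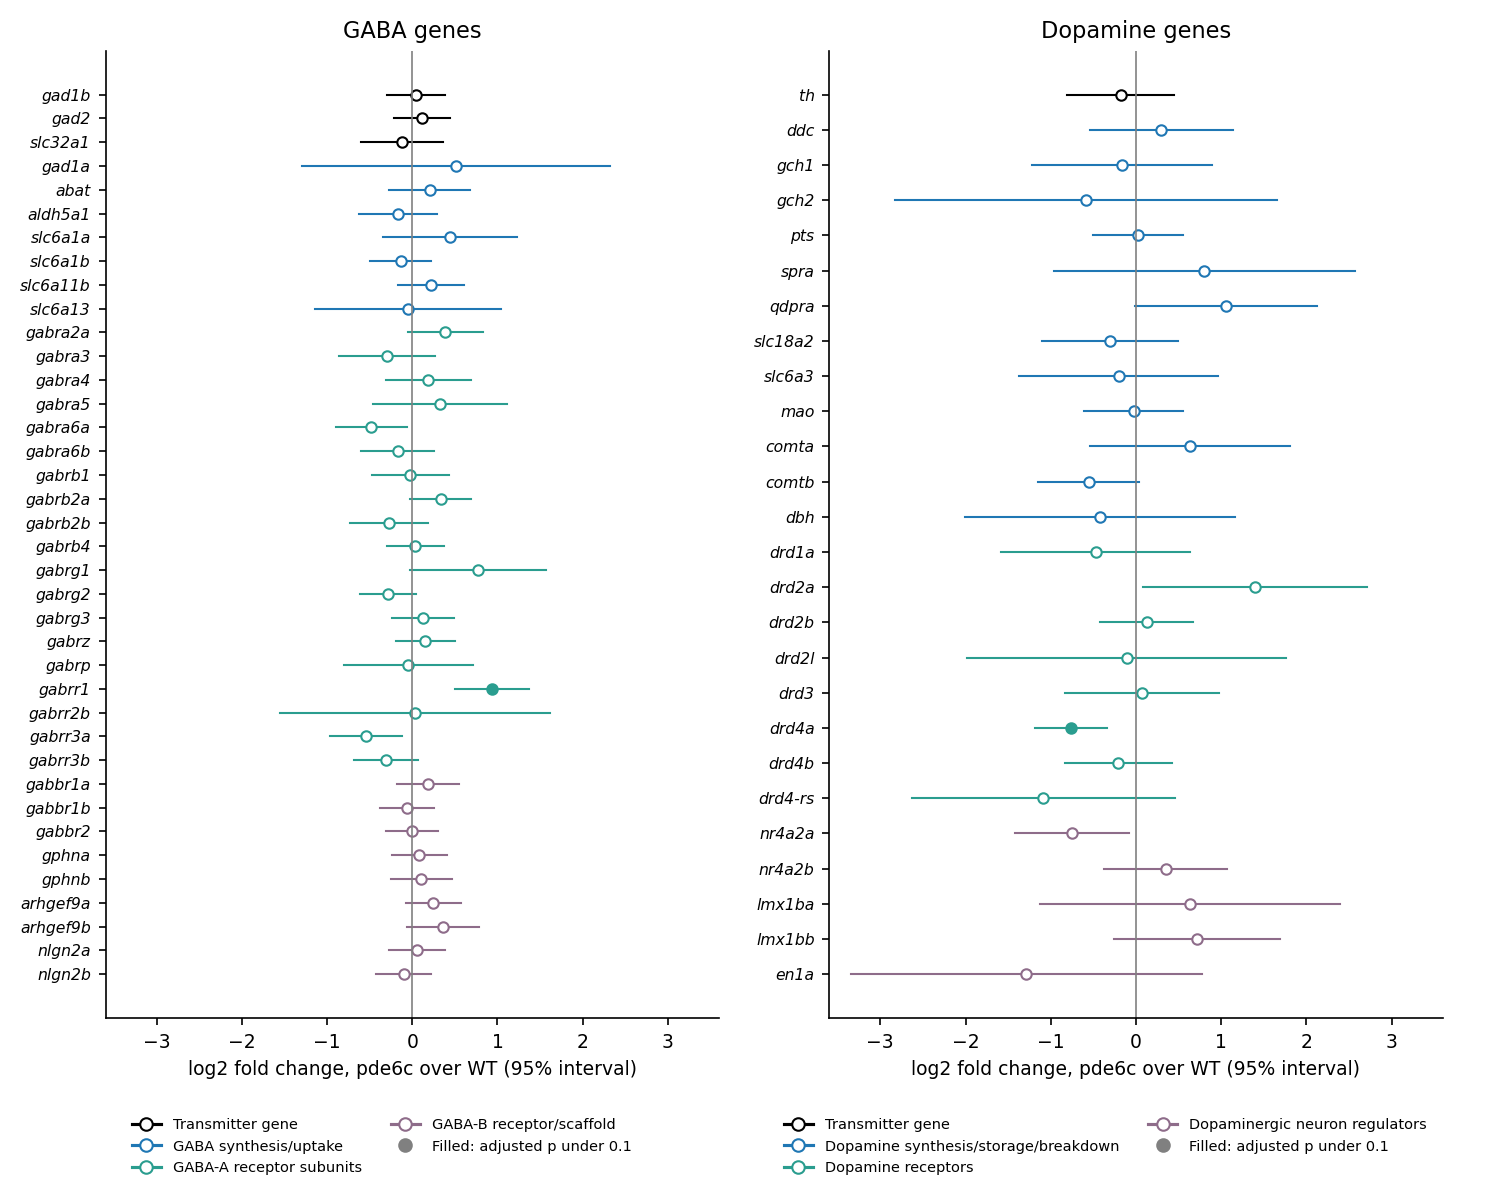
Log2 fold change of *pde6c* over WT with its 95% interval (edgeR) for tested GABA genes (left) and dopamine genes (right), by role. The transmitter genes (top of each panel, black) lay between -0.18 and 0.12, and the 2 filled points are the calls, *gabrr1* at 0.94 and *drd4a* at -0.76.

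Among the GABA-A receptor subunits, the GABA-gated chloride channels, 1 of 21 tested genes rose and 0 fell, against 1.40% and 2.29% of all genes tested. An unadjusted p under 0.05 was found with edgeR for 3 (*gabrr1*, *gabrr3a* and *gabra6a*). The share of all genes under that unadjusted p is not given here, so such counts have no background. The median log2 fold change of the subunits was 0.03, with 11 positive and 10 negative. Among the abundant subunits, *gabra3* averaged 90.0 ± 21.0 FPKM in *pde6c* and 106 ± 43.5 FPKM in WT (log2 fold change in CPM -0.30, edgeR adjusted p = 0.759), and the genotypes overlapped.

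The subunit that rose was *gabrr1* (chromosome 20, 1111266 to 1130439), which encodes a rho subunit. Receptors of rho subunits are known from the axon terminals of bipolar cells, where amacrine cells contact them. It had 94.9, 141 and 111 CPM in *pde6c* libraries, against 61.1, 72.8 and 46.7 CPM in WT libraries. Every *pde6c* library was above every WT library, as was the case for 8.15% of all genes tested. The fold change was 1.92 (log2 0.94, SE 0.20, edgeR adjusted p = 0.0164). The genotypes were also separate in FPKM, at 49.9, 79.3 and 59.8 in *pde6c* libraries, against 35.1, 30.1 and 24.7 in WT libraries. The call held in 12 of 15 alternative settings and was lost without PR2 (edgeR adjusted p = 0.114) and with 2 of the limma fits; the adjusted p over these settings was 0.000937 to 0.19. Of the 11 bipolar cell markers tested, 1 was called, against 3.69% of all genes tested. This was the calcium-binding protein gene *cabp5a*, with 96.5, 108 and 185 CPM in *pde6c* libraries, against 29.8, 29.1 and 20.5 CPM in WT libraries (log2 fold change 2.29, edgeR adjusted p = 3.91e-05). In CPM *cabp5b* was also separate, higher in *pde6c*, but was not called (log2 fold change 0.69, edgeR adjusted p = 0.152). Of the 11 log2 fold changes, 6 were positive and 5 negative. The summed bipolar markers were 1771 to 2035 CPM in *pde6c* and 1687 to 1979 CPM in WT, with *gnao1b* the largest (mean over the libraries 709 CPM). The part of these markers in the *gabrr1* result was not tested.

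Another rho subunit gene, *gabrr3a*, had 64.2, 43.4 and 51.2 CPM in *pde6c* libraries, against 79.7, 65.7 and 85.8 CPM in WT libraries. The genotypes did not overlap, as was the case with *pde6c* lower for 8.75% of all genes tested. The difference missed the threshold (log2 fold change -0.54, edgeR adjusted p = 0.236). It was named after its values were seen.

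**Figure D3:**
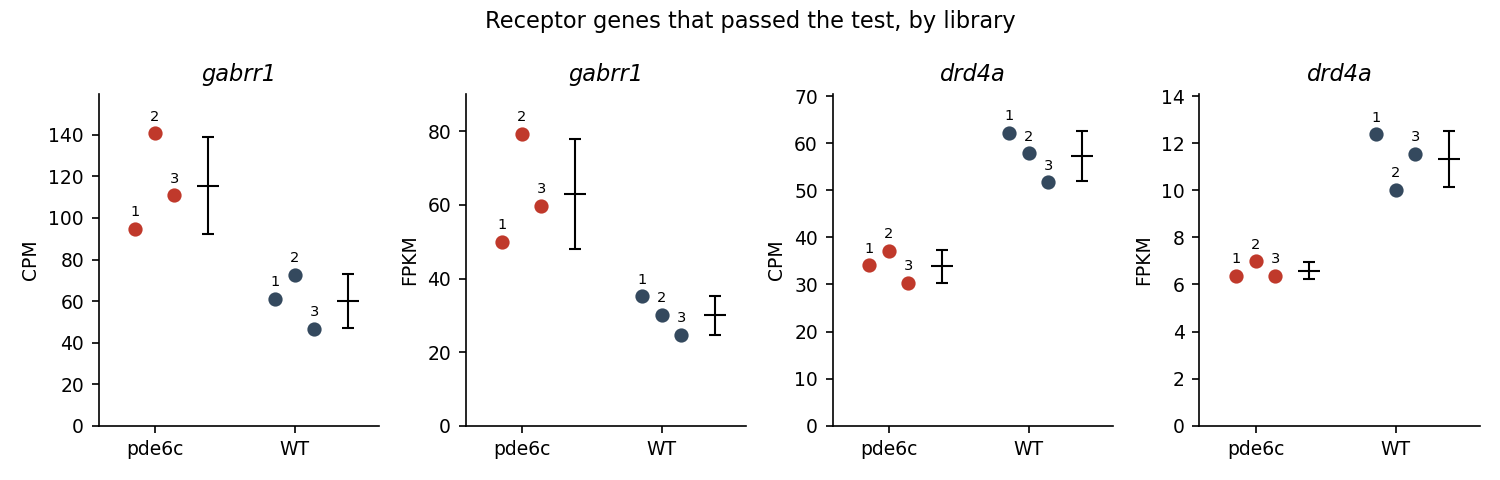
Level of *gabrr1* and *drd4a* in every library, in CPM and FPKM, with *pde6c* left of WT. Points are libraries with their replicate number, and bars give the mean ± SD (n = 3 each). For *gabrr1* the *pde6c* libraries lay at 94.9 to 141 CPM, above the WT libraries at 46.7 to 72.8 CPM, and for *drd4a* at 30.3 to 37.2 CPM, below the WT libraries at 51.7 to 62.2 CPM.

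Around *th*, the dopamine pathway was expressed at low levels. Of 12 tested genes of dopamine synthesis, storage, uptake and breakdown, 0 were called by edgeR, against 3.69% of all genes tested. An unadjusted p under 0.05 was found with edgeR for 0 of the 12, and the median log2 fold change was -0.10. *ddc*, the decarboxylase that follows tyrosine hydroxylase in the pathway, had 11.3, 19.8 and 6.46 CPM in *pde6c* libraries, against 10.8, 10.4 and 9.39 CPM in WT libraries. The *pde6c* libraries spread widely on both sides of the WT libraries (log2 fold change 0.30, 95% interval -0.54 to 1.14). The vesicular monoamine transporter gene *slc18a2* had 10.5, 5.39 and 11.8 CPM in *pde6c* libraries, against 11.8, 12.8 and 9.73 CPM in WT libraries (-0.31, 95% interval -1.11 to 0.50). The dopamine transporter gene *slc6a3*, a defining marker of dopaminergic neurons with *th*, had 2.92, 2.86 and 2.92 CPM in *pde6c* libraries, against 3.31, 2.81 and 3.85 CPM in WT libraries (-0.20, 95% interval -1.37 to 0.97). Its levels overlapped and its interval was wide. *slc18a2* and *slc6a3* fell outside the rule for named genes and were named for their role. The methyltransferase genes *comtb* (mean 23.9 FPKM) and *comta* (5.03 FPKM), which break catecholamines down, had log2 fold changes of -0.56 and 0.64, and neither was called.

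Among the dopamine receptors, 1 of 8 tested genes fell and 0 rose, against 2.29% and 1.40% of all genes tested, with a median log2 fold change of -0.16. An unadjusted p under 0.05 was found for 2 of them with edgeR, the second being *drd2a* in the other direction (log2 fold change 1.39, adjusted p = 0.374). The gene that fell was *drd4a* (chromosome 25, 4580646 to 4606694), a copy of the D4-type receptor gene, which in mouse is expressed in photoreceptors. It had 34.04, 37.2 and 30.3 CPM in *pde6c* libraries, against 62.2, 57.9 and 51.7 CPM in WT libraries. Every *pde6c* library was below every WT library, as was the case for 8.75% of all genes tested. The fold change was 0.591 (log2 -0.76, SE 0.20, edgeR adjusted p = 0.0567). In FPKM it had 6.37, 6.99 and 6.37 in *pde6c* libraries, against 12.4, 10.03 and 11.6 in WT libraries.

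The call of *drd4a* depended on the setting. It held in 6 of 15 alternatives, and the adjusted p over them was 0.00618 to 0.491. It was lost without PR1 (edgeR adjusted p = 0.153), PR3 (0.214), WR1 (0.198), WR2 (0.139) or WR3 (0.112). The call was also lost with library totals only (edgeR adjusted p = 0.101). With limma it was lost on log2(FPKM + 1) (adjusted p = 0.433), on log2(FPKM + 0.1) (0.421) and with no filter (0.491). Photoreceptor markers were lower in the same libraries: the summed cone markers were 6668 to 9317 CPM in *pde6c* and 16080 to 18180 CPM in WT, and the summed rod markers 1344 to 1881 CPM in *pde6c* and 2091 to 3003 CPM in WT. Of the 9 rod markers tested, 3 fell, against 2.29% of all genes tested. They were *gnat1* (edgeR adjusted p = 0.00367), *saga* (0.07) and *rho* (0.0929), and *rho* overlapped between genotypes in CPM. The part of the cone and rod markers in the *drd4a* result was not tested. The other copy, *drd4b*, overlapped between genotypes (log2 fold change -0.21, 95% interval -0.83 to 0.42), as did the D1-type receptor gene *drd1a* (-0.47, 95% interval -1.58 to 0.64).

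The transcription factors of dopaminergic neurons gave 0 calls of 5 with edgeR, against 3.69% of all genes tested, and 1 unadjusted p under 0.05. That gene was *nr4a2a*, at 15.9, 12.3 and 8.84 CPM in *pde6c* libraries, against 24.4, 21.3 and 16.8 CPM in WT libraries. The genotypes did not overlap, as was the case with *pde6c* lower for 8.75% of all genes tested. The log2 fold change of -0.76 did not pass (edgeR adjusted p = 0.326). Its paralogue *nr4a2b* had a log2 fold change of 0.35 and overlapped.

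The other amacrine genes were compared in the same way. Of 16 genes of the glycine, acetylcholine, serotonin, nitric oxide and peptide amacrine cells, 0 were called by edgeR, against 3.69% of all genes tested. An unadjusted p under 0.05 was found with edgeR for 1 of the 16, and the median was -0.07. The glycine transporter gene *slc6a9* was the most abundant, at a mean of 288 FPKM (log2 fold change 0.32, 95% interval -0.03 to 0.67). The acetylcholine genes *slc18a3a* (32.3 FPKM) and *chata* (17.7 FPKM) had log2 fold changes of 0.04 and -0.01. Of 14 amacrine transcription factors, 0 were called by edgeR, against 3.69% of all genes tested, and 0 had an unadjusted p under 0.05. Their median was -0.08, with 12 of 14 negative, where 50.3% of all genes tested were positive. Whether these factors fell as a set was not tested. *pax6a* averaged 237 ± 30.6 FPKM in *pde6c* and 247 ± 33.6 FPKM in WT, *isl1a* 183 ± 21.4 FPKM in *pde6c* and 207 ± 37.3 FPKM in WT, and *pax6b* 163 ± 32.3 FPKM in *pde6c* and 149 ± 38.5 FPKM in WT (SD, n = 3 each). The 3 factors are expressed in amacrine cells, although not in these alone, and like *gad1b*, *gad2*, *slc32a1* and *th* they were detected in every library. Over all 8 lists of GABA, dopamine and amacrine genes, 92 of 114 listed genes were tested and 2 were called (2.17%, against 3.69% of all genes tested), with a median log2 fold change of -0.03. The CPM of the genotypes did not overlap for 7 of the 92 (7.61%), against 16.9% of all genes tested.

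**Figure D4:**
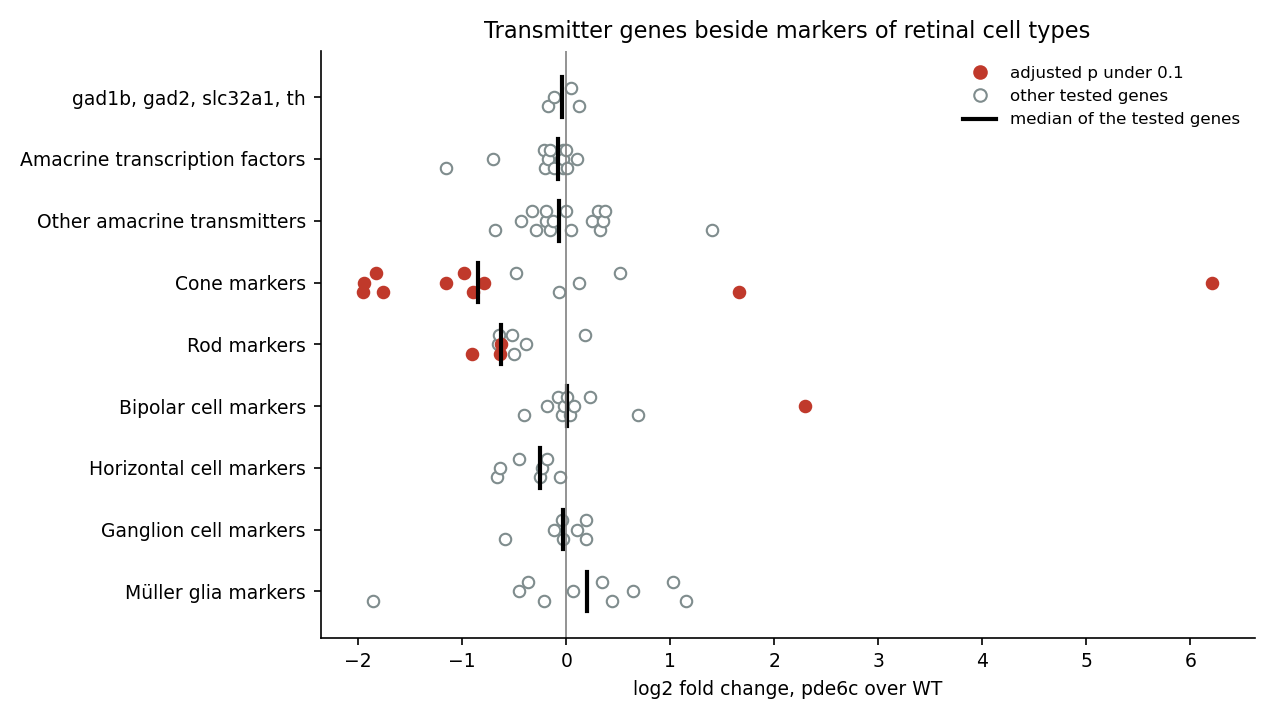
Log2 fold change of *pde6c* over WT for the transmitter genes (top), the amacrine transcription factors and the other amacrine transmitter genes. Below them are the markers of cones, rods, bipolar cells, horizontal cells, ganglion cells and Müller glia. Each point is a tested gene, filled where the adjusted p was under 0.1, and the black bar is the median of the list. The transmitter genes lay around a median of -0.04, the amacrine transcription factors around -0.08 and the cone markers around -0.85; the cone gene at the far right, *opn1mw3*, had 30, 112 and 38 counts in *pde6c* libraries, against 2, 0 and 0 counts in WT libraries, so that its fitted fold change depends on the prior count.

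Other cells that hold GABA or could have entered the dissection were checked by their markers. None of 7 horizontal cell markers was called by edgeR, against 3.69% of all genes tested, with 0 at an unadjusted p under 0.05. All 7 log2 fold changes were negative (median -0.25), where 50.3% of all genes tested were positive. Whether the horizontal cell markers fell as a set was not tested. The summed level of these markers was 701 to 816 CPM in *pde6c* and 790 to 860 CPM in WT. Most of it was *prox1a* (mean over the libraries 626 CPM), whereas *cx52.7* averaged 8.77 CPM, *lhx1a* 8.48 CPM and *cx52.6* 2.92 CPM. The sum thus mainly follows 1 gene. The 11 genes listed as brain markers outside the eye summed to 20.4 to 51.9 CPM in *pde6c* and 26.9 to 52.59 CPM in WT. Most of this was *gbx2* (mean over the libraries 18.2 CPM) and *foxg1a* (14.4 CPM), whereas *emx3* averaged 0.0081 CPM and *dlx1a* and *dlx2a* 0 CPM. Whether retinal cells expressed *gbx2* and *foxg1a* was not tested, so the sum does not measure brain tissue. Of the 11, 5 were at 0 counts in all libraries, but 3 of these (*dlx5a*, *hoxb4a* and *hoxd4a*) lie within the span of another gene, where fragments were not counted. Lens and cornea markers summed to 1.12 to 2.96 CPM in *pde6c* and 3.32 to 6.92 CPM in WT. These low sums did not overlap, and whether the dissections differed was not tested. The spans of *cryba1a* and *crygm2d1* overlap 2 and 15 other genes, so their counts are partial. The part of brain, lens or cornea tissue in the levels of the 4 transmitter genes was not tested.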

How the data were processed

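RNA-seq of whole retinas was analysed in 6 libraries, 3 per genotype. The authors trimmed paired reads with Trimmomatic, aligned them with STAR 2.5.3a to GRCz10 and counted fragments with featureCounts 1.5.2; the deposited counts are unnormalised and were taken over the whole gene span without strand, with multi-mapping and multi-gene fragments left out. The authors also deposited FPKM from Cufflinks 2.2.1, whose options are not given in the sources used here. Amplification before sequencing can distort low counts.

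Counts were tested with edgeR 4.0.16 in R 4.3.3 (TMM, filterByExpr with a minimum count of 10, quasi-likelihood test, genotype only), with Benjamini-Hochberg adjustment over all 17242 genes and a threshold of 0.1. The SE was the log2 fold change over the root of F. CPM and FPKM are given as mean ± SD. A floor of 3 counts was 0.129 to 0.169 CPM, for counting error only. Ratios were compared by a two-sided exact permutation test. Alternatives were DESeq2 1.42.0, limma 3.58.1 on log2(FPKM + 1) and log2(FPKM + 0.1), other scalings and filters, the replicate number as a block and leaving out each library. The test was checked on simulated data, with changes much larger than those of the transmitter genes. The check therefore does not show whether differences as small as theirs would be found.

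Gene names came from a reference table. Of 240 listed symbols, 215 matched, 80 by the same symbol, and the rest mostly from human-style names resolved by chromosome in RefSeq. Of each GABA, dopamine and amacrine list the text names the calls and up to 3 genes with the highest mean FPKM. For the cell type marker lists only some of the calls are named. For each transmitter gene the 3 most alike in log2 CPM are named (prior count 2, mean log2 CPM of at least 1). Other genes named, some of them for their role, were chosen after their values were seen. The members and lists were chosen with earlier results of these data known. The values of some listed genes are not reported here.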

Additional observations from a re-analysis of the deposited data

How the results depend on the processing

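None of the 4 transmitter genes was called under any of the 16 alternatives. These include the stricter threshold of 0.05 on the main fit, which could not call a gene that failed at 0.1. The log2 fold change of *gad1b* was -0.05 to 0.27 over the 16 alternatives. It was -0.05 to 0.20 when single libraries were left out, turning to -0.047 without PR1 and -0.0075 without PR2. That of *slc32a1* was -0.32 to 0.11, turning to 0.01 without PR2 and 0.11 without WR1. *gad2* (0.05 to 0.27) and *th* (-0.34 to -0.05) kept their direction. The log2 difference in the *gad1b* to *gad2* ratio was 0.16 in FPKM and -0.24 to 0.13 when single libraries were left out (0.13 without PR3), and that of *th* to *slc32a1* was -0.41 to 0.19 (0.04 without WR2, 0.19 without WR3). The causes of these turns were not tested.

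Of all genes, DESeq2 called 1081, limma 269 on log2(FPKM + 1), 208 on log2(FPKM + 0.1) and 92 with no filter, and leaving out a library gave 414 to 537. Of the genes in the 8 GABA, dopamine and amacrine lists, 2 with edgeR became 3 with DESeq2, 1 with library totals only, 1 with limma on log2(FPKM + 1), 0 with log2(FPKM + 0.1), 0 with no filter on FPKM, 1 at an adjusted p under 0.05 and 1 to 2 when a library was left out.

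Same-numbered libraries came from different larvae, and the correlations of their deviations were 0.0885, 0.0430 and 0.0354. Differently numbered libraries were not compared in this way, so these values cannot show whether the numbers mark a pairing. With the replicate number as a block, edgeR called 984 genes, 6 of them in the 8 lists (*gabra6a*, *gabrr1*, *gabrr3a*, *drd4a*, *slc6a9* and *foxn4*). With the block the log2 fold changes were 0.03 for *gad1b*, 0.13 for *gad2*, -0.12 for *slc32a1* and -0.18 for *th*, none of them called.

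With 3 pools per genotype, the 95% intervals of the fold changes were 0.815 to 1.31 for *gad1b* and 0.863 to 1.36 for *gad2*. They were 0.658 to 1.29 for *slc32a1* and 0.572 to 1.37 for *th*. Differences within the interval of a gene were not excluded for that gene.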

Other observations

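A pair of GABA-A receptor subunit genes was listed at 0 counts in all 6 libraries while their FPKM was well above 0. Each lies within the span of another gene in the count table, where shared fragments were not counted. *gabrd*, the delta subunit, had 46.3, 43.6 and 57.3 FPKM in *pde6c* libraries, against 31.4, 49.2 and 39.0 FPKM in WT libraries. *gabrr2a*, a rho subunit, had 60.7, 85.8 and 65.3 FPKM in *pde6c* libraries, against 47.3, 87.9 and 46.6 FPKM in WT libraries. The genotypes overlapped for both, through WR2 in each case.

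The serotonin transporter gene *slc6a4b* had 3.73, 9.41 and 8.07 CPM in *pde6c* libraries, against 3.40, 2.48 and 2.12 CPM in WT libraries. The genotypes did not overlap, but the difference did not pass with edgeR (log2 fold change 1.40, adjusted p = 0.231), and it passed with DESeq2 (adjusted p = 0.0869). *qdpra*, which encodes a dihydropteridine reductase that recycles the cofactor of tyrosine hydroxylase, had 5.88, 5.76 and 4.42 CPM in *pde6c* libraries, against 2.56, 2.36 and 2.79 CPM in WT libraries. These levels did not overlap, and the log2 fold change of 1.06 did not pass with edgeR (adjusted p = 0.432). The GABA transporter gene *slc6a11b* did not overlap either, at 59.5, 62.2 and 67.5 CPM in *pde6c* libraries, against 51.0, 58.8 and 52.8 CPM in WT libraries, and its log2 fold change of 0.22 did not pass (edgeR adjusted p = 0.731). Every *pde6c* library was above every WT library for 8.15% of all genes tested. In either direction the genotypes were separate for 7.61% of the tested genes of the 8 lists, against 16.9% of all genes tested. The 5 genes of this section were chosen after their values were seen.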
